A study of Mus musculus with 37 samples.

Results

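Amino acid transporters of the solute carrier families 1, 3, 6, 7, 36, 38 and 43 were followed in ribosome-bound RNA of mouse podocytes in a type 2 and a type 1 model of diabetes. The members were chosen by gene symbol: all genes deposited as protein coding whose symbol starts with Slc, one of those family numbers, the letter a and a digit. The rule gave 61 of the 32108 genes in the tables. One of them, Slc7a6os, lies beside Slc7a6 and its product is not a carrier, so it is counted but not interpreted as one. Several members carry other solutes than amino acids, such as creatine, serotonin or nucleobases.

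Podocytes are epithelial cells whose foot processes cover the glomerular capillaries and hold back protein. Their ribosomes were pulled down from kidneys by translating ribosome affinity purification (TRAP), labelled as polyA RNA, which gave 36 libraries, and 1 library holds total RNA of whole kidney. All mice are labelled C57BL/6. The type 2 model compared eNOS-/- db/db mice, which lack endothelial nitric oxide synthase and carry db/db, a leptin receptor mutation, with eNOS-/- mice labelled normal. There were 5 diabetic and 5 control TRAP libraries at 3 months of age, and 3 and 4 at 6 months, so controls of this model also lack the synthase. The kidney library came from a normal eNOS-/- mouse of 3 months. The type 1 model compared mice given streptozotocin (STZ), a toxin of insulin-producing cells, with mice given no STZ, and no genotype is given for either. It had 5 STZ and 4 control libraries in the 3-week arm (age 3 months), and 5 and 5 in the 24-week arm (age 8 months). Every diabetic mouse of this model received STZ, so the toxin and diabetes cannot be told apart. The name of the deposited tables gives a podocin Cre, active in podocytes, as the driver. Since no label ties each library to its own animal, the p-values below reflect library-to-library spread, which may be technical.

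Amino acid carriers work in functional groups. Heavy chains (the Slc3 family) bring exchangers of the Slc7 family to the membrane, where one amino acid is swapped for another. Sodium-coupled carriers of the Slc1, Slc6 and Slc38 families load cells against a gradient, and carriers of the Slc36 family act at the membrane and in lysosomes. In the kidney most of this machinery serves the proximal tubule, which takes filtered amino acids back from the urine, whereas taurine and betaine carriers also move osmolytes that cells use to hold their volume.

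Total counts were 6702120 to 37786025 per TRAP library and 28033680 in the kidney library. The podocyte label held: the nephrin gene Nphs1 was at 1175 to 2052 normalised CPM (counts scaled to library size) in the 5 TRAP controls of 3 months and at 14.1 CPM in kidney, and the podocyte transcription factor Wt1 at 1628 to 2274 against 13.9 CPM. Nos3, the gene of the deleted synthase, was at 0 to 17.7 CPM over all TRAP libraries, and Lepr, which db/db mutates, at 1.12 to 9.81 CPM. Counts over whole genes do not check a deletion or a splice mutation. Tubule RNA was present throughout. The summed CPM of 28 proximal tubule markers was 15170 to 22680 in type 2 controls of 3 months, 6532 to 14060 in their diabetic mates and 46220 in kidney, and none of the 28 was at 0 in every library of a group. Some libraries stood apart. Type 2 diabetic libraries 4 and 5 of 3 months had macrophage scores (mean log2 CPM of 14 markers) of 3.94 and 2.89, against 0.94 to 1.11 in the other 3. Type 2 diabetic library 3 of 6 months had the lowest total and a podocyte score of 7.20 against 8.53 and 9.18. The 4 controls of the 3-week arm had 15558 to 16362 genes above 0, and the STZ libraries 14320 to 21050, the lowest being library 4.

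The levels of different carriers can be compared only per length, as the deposited FPKM (fragments scaled by gene length and library total). Over the 18 control TRAP libraries the taurine carrier Slc6a6 (chromosome 6, 91684067 to 91759063 on GRCm38) led with 143 ± 34.1 FPKM (SD, n = 18), and it made up 23.0% of the summed FPKM of the members. Slc7a13, an exchanger for acidic amino acids and cystine in the late proximal tubule, followed at 60.6 ± 12.1 FPKM (SD, n = 18). The range of Slc6a6 was 86.2 to 193 FPKM and that of Slc7a13 was 43.5 to 86.9 FPKM, and within each of the 18 libraries Slc6a6 was above Slc7a13. Next were the heavy chain Slc3a1 at 49.8 ± 10.4, the creatine carrier Slc6a8 at 47.2 ± 7.81 and Slc38a10 at 39.1 ± 3.92 FPKM (SD, n = 18). Within libraries Slc3a1 was above Slc6a8 in 7 of 18 and above Slc38a10 in 17 of 18, and Slc6a8 was above Slc38a10 in 14 of 18, so the first pair has no steady order. The tubular glycine carrier Slc6a18 (34.9 FPKM), the heavy chain Slc3a2 (25.8), the neutral exchanger Slc7a8 (22.8), the lysosomal proton-coupled carrier Slc36a1 (21.1) and the basolateral carrier Slc43a2 (17.5) completed the 10 highest. Beside Slc3a2, its exchanger partner Slc7a5 was low, at 0.667 ± 0.406 FPKM (SD, n = 18). The cystine and glutamate exchanger Slc7a11 was at 0.0055 FPKM, with 0 to 0.019 over the libraries.

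**Figure D1:**
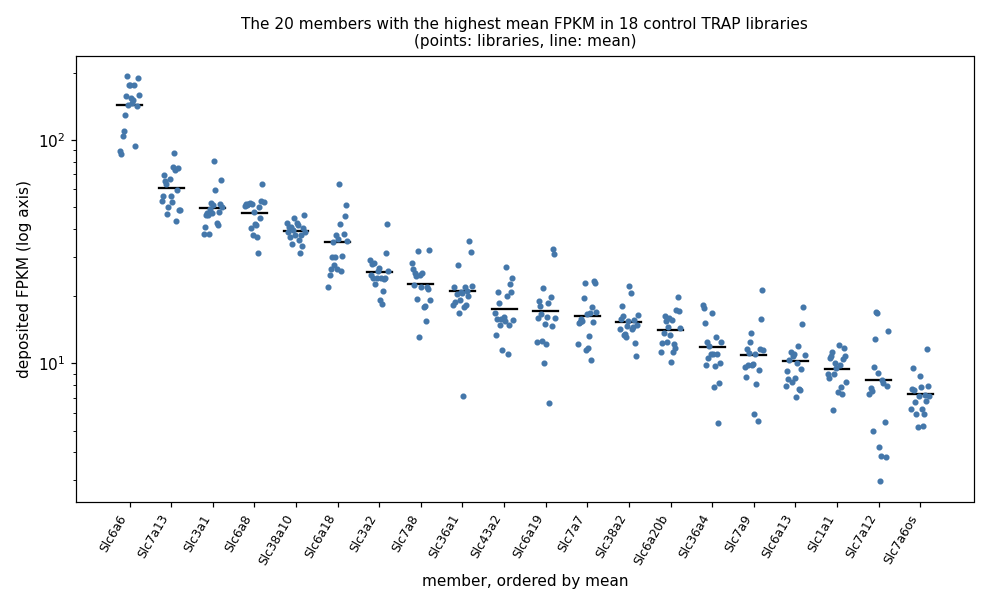
Deposited FPKM (log axis) of the 20 members with the highest mean over the 18 control TRAP libraries; points are libraries and lines are means. Slc6a6 has a mean of 143 FPKM, Slc7a13 of 60.6, and neighbours further down overlap.

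Most members were lower in podocyte TRAP than in whole kidney. Of 45 members that passed the filter on low counts in the type 2 fit, 2 were at least 2-fold higher in the 5 TRAP controls of 3 months than in the kidney library, against 8.94% of all 17180 genes. Another 16 were at least 2-fold lower, against 8.55% of all genes, and 27 lay between. Ratios are of CPM plus 0.5, and their median was 0.549 over the members and 0.980 over all genes. With 1 kidney library there is no test, and total and polyA RNA differ in kind. Slc36a4, a carrier of tryptophan and proline (chromosome 9, 15709738 to 15742384), was at 101, 95.9, 83.3, 57.3 and 69.2 CPM in TRAP. In kidney it was at 9.71 CPM (exact 95% Poisson interval 8.59 to 10.9), a ratio of 8.01. Each TRAP library exceeded the kidney library. Slc38a4, a sodium-coupled carrier of neutral and cationic amino acids (chromosome 15, 96994823 to 97055956), was at 12.73, 13, 11.97, 7.95 and 7.40 CPM against 2.32 CPM (1.79 to 2.96), a ratio of 3.94. Then came Slc38a10 with a ratio of 1.67, the exchanger Slc7a6 with 1.62, the cationic carrier Slc7a1 with 1.54 and the lysosomal arginine sensor Slc38a9 with 1.45.

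The lowest ratios belonged to carriers of the tubule. They were 0.257 for Slc7a12, 0.287 for the imino acid carrier Slc6a20a, 0.313 for the glutamate carrier Slc1a1, 0.314 for Slc3a1, 0.319 for the glutamine carrier Slc38a3 and 0.327 for Slc6a19, the main neutral carrier of the brush border. Slc3a1 still stood at 101 ± 11.01 CPM in TRAP (SD, n = 5), and kidney had 322 CPM. The TRAP level of Slc6a6 was 642 ± 116 CPM (SD, n = 5) and the kidney level 660 CPM, a ratio of 0.973. In a bulk sample fewer cells of a type and less RNA per cell cannot be told apart, and tubule RNA in the pull-down adds to every one of these levels by an amount that was not measured.

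**Figure D2:**
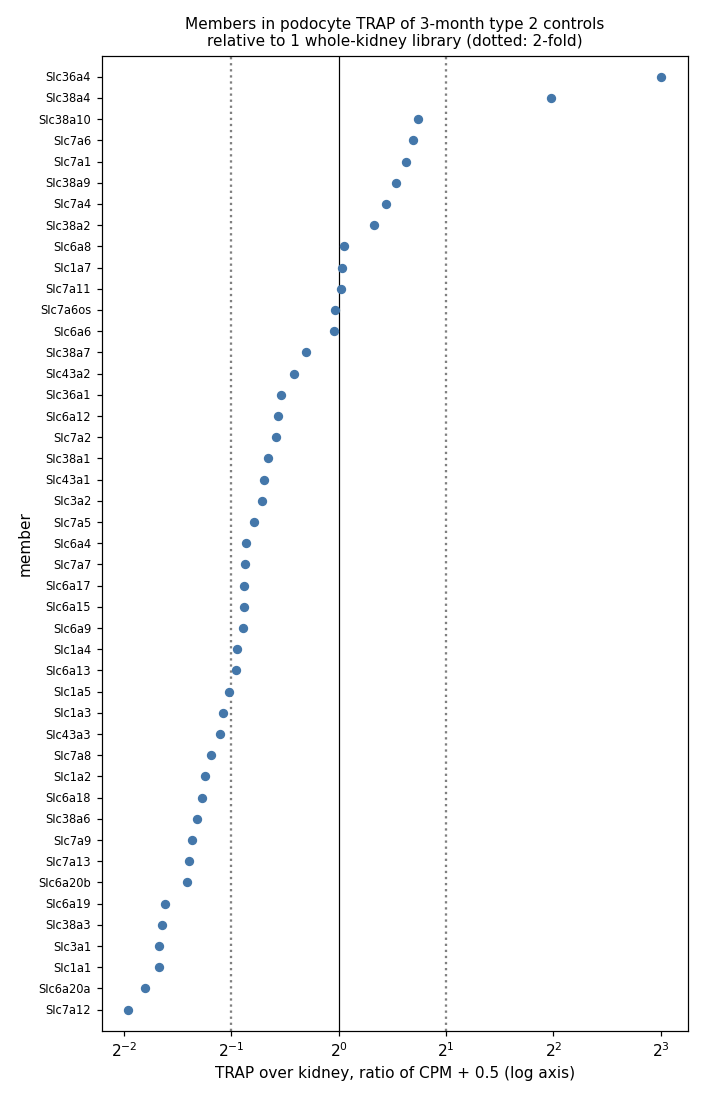
Ratio of mean CPM plus 0.5 in the 5 type 2 control TRAP libraries of 3 months to the 1 kidney library (log axis) for the 45 members tested; dotted lines mark 2-fold. Slc36a4 (8.01) and Slc38a4 (3.94) lie beyond 2-fold on the high side and 16 members on the low side.

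Diabetic and control libraries were compared within each model with edgeR's quasi-likelihood test, and a gene is called when its Benjamini-Hochberg adjusted p over all genes is under 0.05. In the type 2 model at 3 months 8 of 45 members were called (17.8%), against 3.99% of all genes, with 3 higher and 5 lower. With DESeq2's size factors in edgeR the split was 3 and 3. At 6 months 20 of 45 were called (44.4%), against 22.9% of all genes, with 13 higher and 7 lower. In the type 1 model 6 of 44 were called at 3 weeks (13.6%, against 6.5%), 3 higher and 3 lower, and 3 of 44 at 24 weeks (6.82%, against 0.897%), all 3 higher. The background of calls in 1 direction was 2.03% higher and 1.96% lower, 11.2% and 11.7%, 3.78% and 2.72%, and 0.448% and 0.448% in the same order. The median log2 change of the members was 0.07, 0.03, 0.21 and 0.13, and that of all genes 0.04, -0.01, 0.00 and -0.01. Slc6a6 was called higher in 3 of the 4 comparisons and Slc7a13 lower in 3, and no member was called in all 4. A missed call is not a lack of change. The log2 change of Slc7a13 was -2.72, -3.70, -2.88 and -3.03, and that of Slc6a12 2.24, 1.79, 1.99 and 2.49.

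Other markers moved in the same libraries. Of the 28 proximal tubule markers 10, 19, 17 and 5 fell in the 4 comparisons, and none rose. Of 21 podocyte markers 1, 19, 0 and 0 fell, and of 14 macrophage markers 0, 8, 7 and 0 rose. Of 11 markers of mesangium and smooth muscle 3, 6, 3 and 0 rose, and of 8 markers of parietal epithelium 1, 6, 4 and 1. Summed macrophage CPM in the type 2 model at 3 months was 60.9 to 88.6 for controls and 47.1 to 339 for diabetic libraries, and 81.1 to 125 and 182 to 341 at 6 months. At 3 weeks of the type 1 model it was 48.9 to 119 and 127 to 359, and at 24 weeks 93.9 to 157 and 143 to 275. No macrophage marker was at 0 in every library of any group. The part of these shifts in the members' changes was not tested by separating cells, but marker scores were entered as covariates. With the proximal tubule score in the fit 5, 2, 2 and 1 members were called in the 4 comparisons, and with the podocyte score 9, 1, 11 and 5. The proximal tubule score did not overlap between control and diabetic libraries in any comparison (8.25 to 8.49 against 6.08 to 7.53 at 6 months). Nor did the podocyte score at 6 months (9.945 to 10.15 against 7.20 to 9.18). A fit with such a score cannot separate the shift in markers from diabetes, so a call lost there does not tell what moved the member. At 6 months the calls kept were those of Slc7a13 with either score and Slc6a12 with the proximal tubule score. Leaving out 1 library at a time gave 4 to 8, 13 to 18, 3 to 9 and 0 to 5 calls. At 3 months the count fell to 5 without control 1 or 3 or diabetic 1 or 2, and to 4 without control 4, control 5 or diabetic 4. At 6 months it was 13 without diabetic 3, at 3 weeks 3 without STZ 1 or 3, and at 24 weeks 0 without control 2, control 3 or STZ 2, 5 without STZ 4, and 1 without control 1, control 5, STZ 3 or STZ 5.

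**Figure D3:**
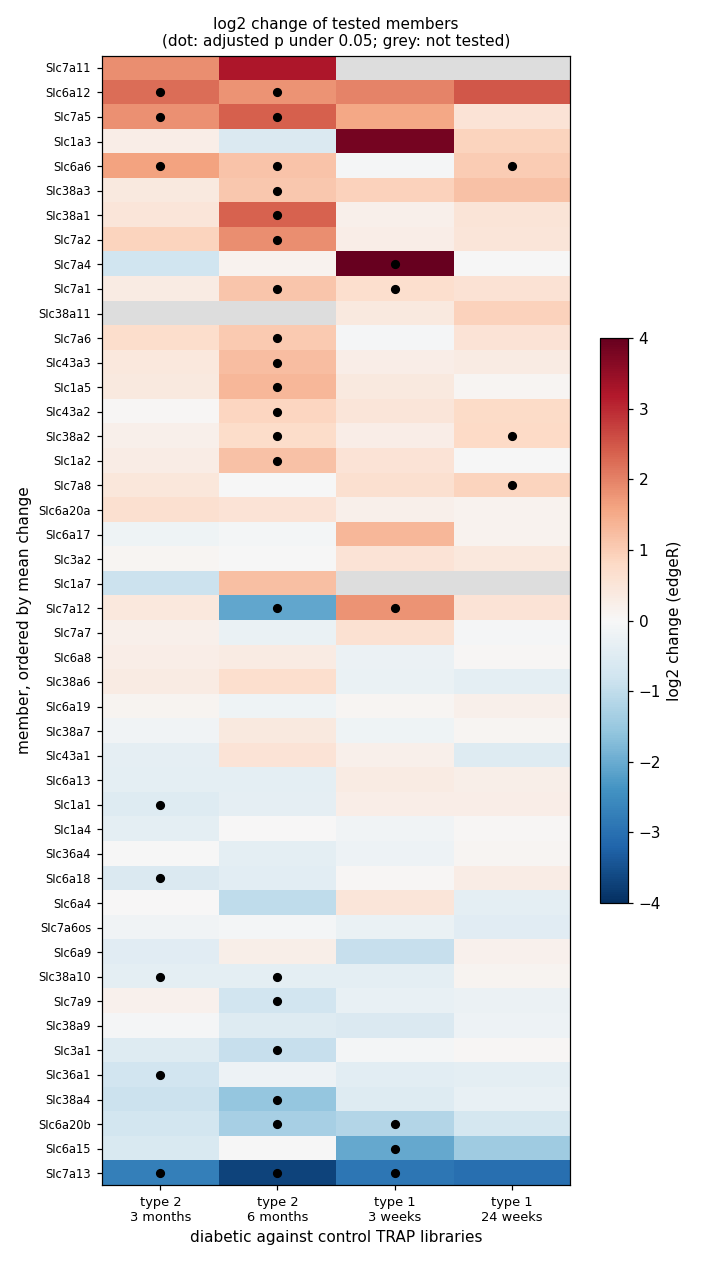
Log2 change (diabetic against control TRAP libraries) of every member tested in at least 1 model, with a dot where the adjusted p is under 0.05 and grey where the member was not tested. Slc7a13 is lowest in the mean, and the type 2 comparison at 6 months holds 20 of the dots.

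Carriers of taurine, betaine and creatine come first, since one of them holds the largest share. Slc6a6 brings taurine, an organic osmolyte and antioxidant, into cells. In the type 2 model at 3 months it was at 550, 517, 634, 708 and 801 CPM in controls and at 1813, 1749, 1215, 2323 and 2691 CPM in diabetic libraries. The groups did not overlap, and Slc6a6 rose by a log2 change of 1.60 (SE 0.22, adjusted p = 0.000162). At 6 months it was at 1067, 1271, 937 and 1086 CPM in controls and 2166, 3253 and 1646 CPM in diabetic libraries, again without overlap, and rose by 1.12 (SE 0.26, adjusted p = 0.00516). Its share of the summed member FPKM was 18.1 ± 1.83% (SD, n = 5) in controls and 43.7 ± 8.77% (SD, n = 5) in diabetic libraries at 3 months.

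In the type 1 model Slc6a6 was called in the later arm and not in the earlier one, and the difference between the arms was not called. At 3 weeks Slc6a6 was at 1214, 1048, 951 and 950 CPM in controls and at 1102, 1177, 936, 1155 and 811 CPM in STZ libraries, which overlap. At 24 weeks it was at 1085, 662, 875, 1070 and 982 CPM in controls and at 1507, 3149, 1285, 1846 and 1757 CPM after STZ. The latter groups did not overlap, and Slc6a6 rose by 1.02 (SE 0.21, adjusted p = 0.0194). That call was lost without control 2 (0.93, adjusted p = 0.0601), control 3 (1.00, 0.0677) or STZ 2 (0.76, 0.069), all by edgeR. At 3 months of the type 2 model Slc6a6 was called in each of the 19 other settings tried, and at 6 months in all but those with a marker score as covariate. With the proximal tubule score its 6-month change was 1.51 (adjusted p = 0.12) and with the podocyte score 1.11 (adjusted p = 0.174), both by edgeR.

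Slc6a12, the carrier of betaine and GABA (chromosome 6, 121343076 to 121365775), was scarce and also rose in the type 2 model. At 3 months of the type 2 model it was at 0.745, 0.539, 0.497, 1.37 and 1.33 CPM in controls and at 5.33, 4.10, 3.63, 2.55 and 5.68 CPM in diabetic libraries. The groups did not overlap, and Slc6a12 rose by 2.24 (SE 0.43, adjusted p = 0.00406). At 6 months it ranged from 1.09 to 2.53 CPM in controls and from 2.13 to 8.77 CPM in diabetic libraries, where the groups overlap, and rose by 1.79 (SE 0.49, adjusted p = 0.0145). Without diabetic 2 the value was 1.41 (adjusted p = 0.0542 by edgeR), and in the fit of all 36 TRAP libraries the adjusted p was 0.0859. In the type 1 model it was not called: the values were 0, 1.39, 3.11 and 0.0533 CPM against 6.43, 6.78, 3.40, 3.94 and 2.31 CPM at 3 weeks (log2 change 1.99, SE 0.81, adjusted p = 0.151). At 24 weeks they were 1.23, 2.58, 1.13, 1.01 and 0.942 CPM against 2.31, 10.8, 13.3, 6.47 and 6.50 CPM (2.49, SE 0.75, adjusted p = 0.131), and DESeq2 called the latter (adjusted p = 0.0155). The fit of all 36 TRAP libraries also called the 24-week change, and 16 of 18 other settings did not. At 3 weeks limma on log2(FPKM + 0.1) called Slc6a12 (adjusted p = 0.0233), and so did edgeR without control 3 (adjusted p = 0.037). The creatine carrier Slc6a8 had log2 changes of 0.26, 0.33, -0.25 and 0.04 in the 4 comparisons and was called in none of them. Slc6a13, a carrier of GABA and taurine, had -0.38, -0.38, 0.32 and 0.22, without a call.

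**Figure D4:**
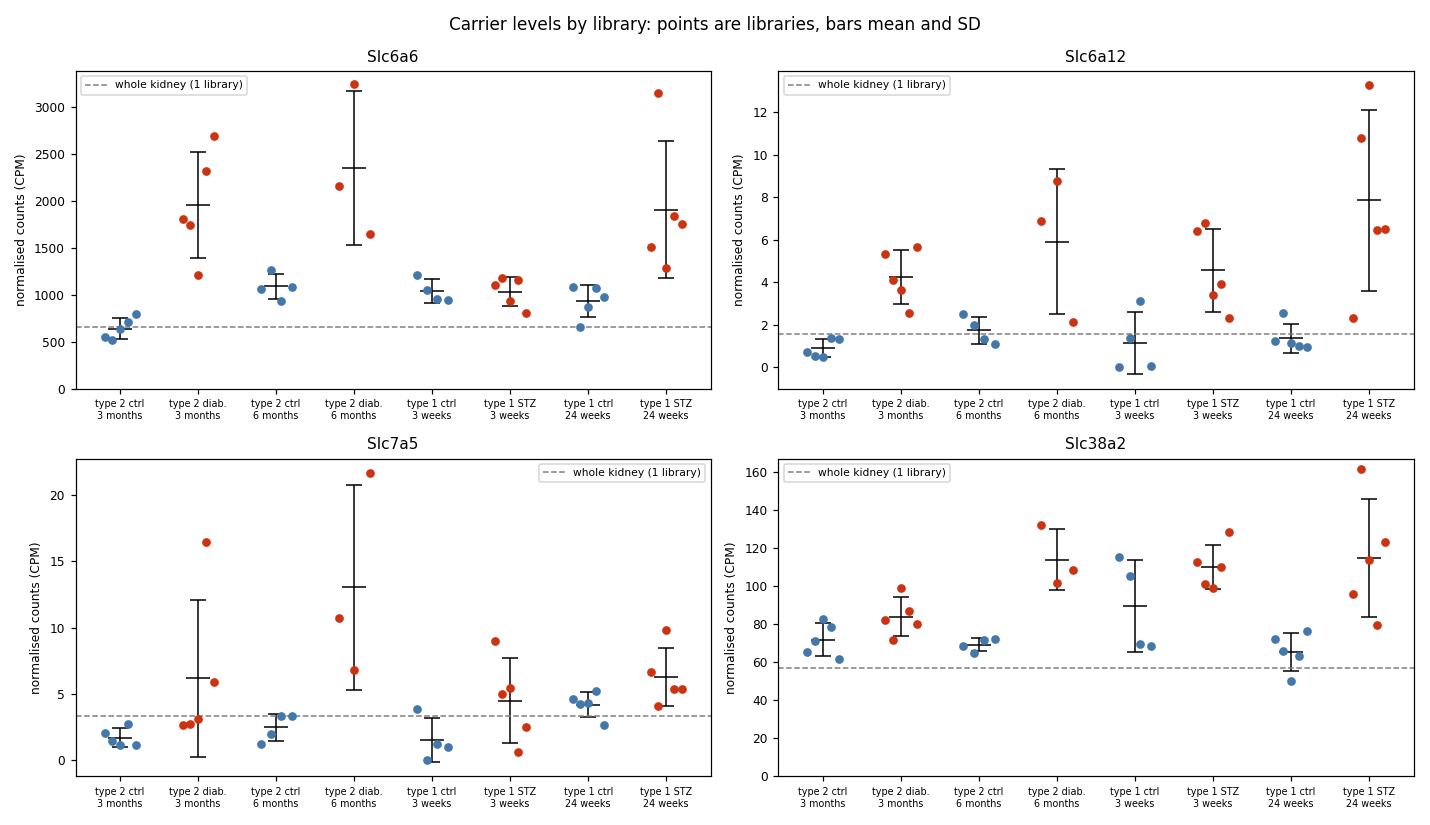
Normalised counts (CPM) of 4 carriers in the 8 TRAP groups, blue for controls and red for diabetic libraries; points are libraries, bars are mean and SD, and the dashed line is the kidney library. Slc6a6 is separated in 3 of 4 pairs of groups, and Slc7a5 of type 2 diabetic library 4 at 3 months stands alone at 16.5 CPM.

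The sequence upstream of Slc6a12 is shown because the gene rose in both type 2 comparisons and because osmolyte carriers are known targets of the tonicity-responsive factor that binds a motif with the core TGGAAA. The 250 bases before 1 of its 5 listed start sites (chr6:121342324-121342573, plus strand, RefSeq on GRCm38.p6) read as follows, with the core in capitals.
Slc6a12: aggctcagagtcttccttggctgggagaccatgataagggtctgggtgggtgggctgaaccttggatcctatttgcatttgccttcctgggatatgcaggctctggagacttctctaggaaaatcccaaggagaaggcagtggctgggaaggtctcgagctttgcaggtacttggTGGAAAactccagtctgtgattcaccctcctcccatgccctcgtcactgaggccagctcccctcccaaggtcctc
The match starts 75 bases before the start site. Of the 5 start sites the one with the most matches was picked for display, so finding a match there is no test. The letters TGGAAA, searched on both strands, occur in 18.6% of the 32851 promoters of the table over the same 250 bases. That share is per start site and is not the share for a best of 5. Promoters of 43 members were matched by symbol, with 64 start sites, and 12 of the 64 hold the core, a share near that of all promoters. A match is a description of the sequence, not of a bound site. Slc6a6, Slc7a5 and Slc7a13 have no entry in the table.

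Exchangers of the tubule and their heavy chain form the next group. Slc7a13 pairs with the heavy chain Slc3a1, and in mice it is a gene of the last proximal tubule segment that is more active in males. Slc7a13 (chromosome 4, 19818725 to 19842218) was at 114, 117, 147, 147 and 136 CPM in type 2 controls of 3 months and at 19.6, 15.4, 28.5, 14.6 and 22.2 CPM in diabetic libraries. It fell by a log2 change of 2.72 (SE 0.25, adjusted p = 3.98e-06). At 6 months it was at 110, 115, 151 and 120 CPM in controls and at 13.5, 10.5 and 3.38 CPM in diabetic libraries, and fell by 3.70 (SE 0.33, adjusted p = 1.43e-05). At 3 weeks of the type 1 model it was at 126, 178, 197 and 159 CPM in controls and at 26.1, 5.13, 6.95, 20.3 and 57.6 CPM after STZ, and fell by 2.88 (SE 0.73, adjusted p = 0.0228). At 24 weeks it was at 93.0, 145, 161, 95.7 and 105 CPM in controls and at 30.9, 2.21, 3.76, 34.5 and 3.52 CPM after STZ. In none of the 4 comparisons did the groups overlap, although the last was not called (log2 change -3.03, SE 0.72, adjusted p = 0.0522).

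Both type 2 calls of Slc7a13 were kept in every other setting tried, with the proximal tubule score as covariate among them. The 3-week call was lost with that score (-0.84, adjusted p = 0.732), with no filter on low counts (adjusted p = 0.0721), and without control 2 (0.0575), STZ 1 (0.0518) or STZ 3 (0.0609), by edgeR. The 24-week change was called by DESeq2 (adjusted p = 0.00292), by limma (0.00714), in a fit of all 36 TRAP libraries (0.00466), and without STZ 1 (0.032) or STZ 4 (0.0305). Kap, a male-biased gene among the 28 tubule markers, fell in all 4 comparisons, by log2 changes of 2.92, 4.41, 4.01 and 4.68. It was picked after its values were seen. The median log2 change of the 28 markers was -0.44, -1.15, -0.99 and -0.48 in the same order. The part of sex bias in these changes was not tested. Every library had counts of the Y-linked gene Ddx3y (36.4 to 124 CPM), and Xist was at 0 to 3.63 CPM.

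Slc7a12, another exchanger of the late proximal tubule, more active in female mice, was called lower in the later type 2 comparison and higher in the earlier type 1 comparison. At 6 months of the type 2 model it was at 24.6, 31.7, 31.0 and 15.8 CPM in controls and at 7.68, 8.09 and 1.88 CPM in diabetic libraries, and fell by 2.07 (SE 0.39, adjusted p = 0.00158). At 3 weeks of the type 1 model it was at 8.33, 5.72, 7.12 and 14.9 CPM in controls and at 43.5, 32.9, 35.1, 25.2 and 21.8 CPM after STZ, and rose by 1.78 (SE 0.33, adjusted p = 0.00238). The groups overlapped in neither. The other 2 comparisons had 0.43 at 3 months and 0.54 at 24 weeks, without a call. Between the models the early effects differed by -1.37 (adjusted p = 0.149) and the late ones by -2.62 (adjusted p = 0.02), by edgeR. With the proximal tubule score as covariate the 6-month change was -0.89 (adjusted p = 0.479) and the 3-week change 0.90 (adjusted p = 0.305), by edgeR.

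The heavy chain Slc3a1 (chromosome 17, 85028347 to 85064243) fell by 0.93 at 6 months of the type 2 model (SE 0.19, adjusted p = 0.00232), from 114 ± 13.9 to 58.8 ± 11.03 CPM (SD, n = 4 and 3). At 3 months its change was -0.52 (SE 0.15, adjusted p = 0.0599), and in the type 1 model -0.07 and 0.04. Its main partner for cystine and cationic amino acids, Slc7a9, fell at 6 months by 0.75 (SE 0.25, adjusted p = 0.0377), and had 0.18, -0.31 and -0.22 elsewhere. Without type 2 diabetic library 3 its 6-month value was -0.49 (adjusted p = 0.174), and the call was also lost without control 1 (-0.70, 0.0806) or control 2 (-0.67, 0.0834), by edgeR.

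**Figure D5:**
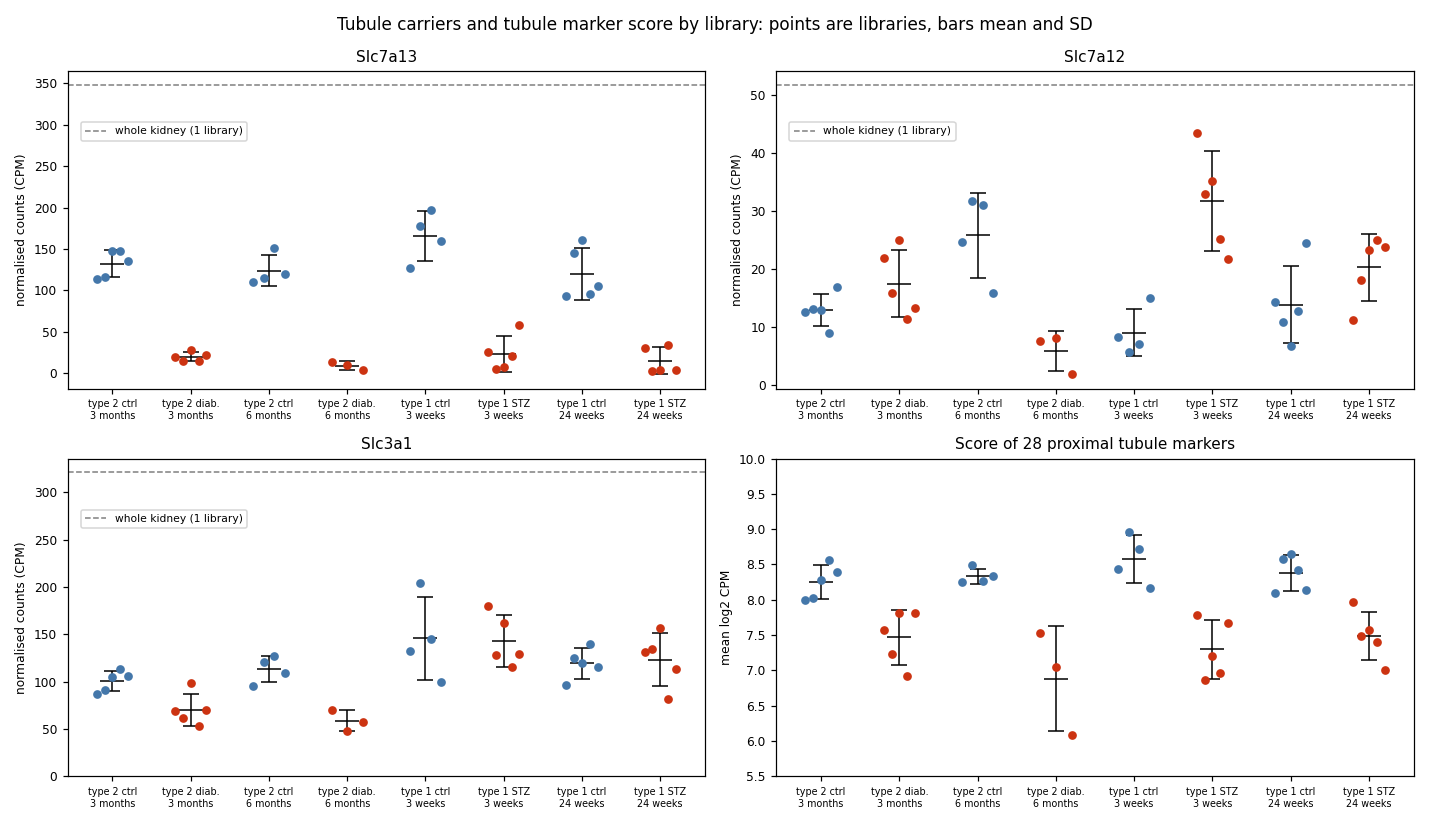
CPM of Slc7a13, Slc7a12 and Slc3a1 and the score of 28 proximal tubule markers (mean log2 CPM, axis from 5.5) in the 8 TRAP groups; points are libraries, bars are mean and SD, and the dashed line is the kidney library. Slc7a13 and the marker score are lower in all 4 diabetic groups, while Slc7a12 is higher at 3 weeks of the type 1 model and lower at 6 months of the type 2 model.

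The exchangers that pair with the other heavy chain, Slc3a2, supply large neutral amino acids. Slc3a2 itself was not called in any comparison (log2 changes 0.07, -0.03, 0.54 and 0.43). Slc7a5, its partner for leucine uptake in growing and activated cells, was at 2.05, 1.45, 1.14, 2.77 and 1.18 CPM in type 2 controls of 3 months and at 2.64, 2.75, 3.09, 16.5 and 5.94 CPM in diabetic libraries. Diabetic libraries 4 and 5, those with the high macrophage scores, stood above the others, and Slc7a5 rose by 1.83 (SE 0.50, adjusted p = 0.0458). Without both libraries the change was 0.71 (adjusted p = 0.475 by edgeR). The call was also lost without diabetic 4 alone (1.06, adjusted p = 0.231), without diabetic 5 alone (1.84, 0.0678), and without any 1 of the controls (1.72 to 2.06, adjusted p = 0.0549 to 0.117). At 6 months Slc7a5 was at 1.23, 2.01, 3.34 and 3.33 CPM in controls and at 10.7, 6.78 and 21.7 CPM in diabetic libraries, without overlap, and rose by 2.40 (SE 0.59, adjusted p = 0.00841). The highest value was that of diabetic library 3, without which the change was 1.82 (adjusted p = 0.063 by edgeR). With the podocyte score as covariate the 6-month change was 0.10 (adjusted p = 0.968) and with the proximal tubule score 0.85 (adjusted p = 0.674), by edgeR. At 3 weeks of the type 1 model it was at 3.86, 0, 1.21 and 1.01 CPM against 8.98, 5.01, 5.47, 0.606 and 2.51 CPM (1.56, SE 0.72, adjusted p = 0.218). STZ libraries 1 to 3, with macrophage scores of 3.50 to 4.00 against 2.15 and 2.44 in the other 2, held its higher values.

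Slc7a8, the partner of Slc3a2 in the basolateral membrane of the tubule, rose at 24 weeks of the type 1 model. It was at 62.0, 102, 86.9, 120 and 78.2 CPM in controls and at 230, 147, 183, 129 and 142 CPM after STZ, without overlap, a log2 change of 0.88 (SE 0.21, adjusted p = 0.0462). The change was 0.72 to 0.94 without any 1 library, and only without control 4 or STZ 4 did it stay called by edgeR. Elsewhere it had 0.47, -0.03 and 0.65, without a call. Slc7a6, which exchanges cationic for neutral amino acids, rose at 6 months by 1.03 (SE 0.33, adjusted p = 0.0311). It lost the call without any 1 of controls 1, 2 and 4 or diabetic libraries 1 and 3 (0.79 to 1.10, adjusted p = 0.0536 to 0.12). The related Slc7a7 of the tubule was called in no comparison (0.20, -0.26, 0.61 and -0.04).

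Slc7a11 imports cystine for glutathione and is known to be induced by amino acid shortage and oxidative stress. It was at 0 to 0.261 CPM in all 18 control TRAP libraries. In diabetic libraries it was at 0.753, 0.674, 0, 1.36 and 0.152 CPM at 3 months, at 0.768, 0.261 and 2.38 CPM at 6 months, at 0.516, 0.977, 2.46, 0 and 0.601 CPM at 3 weeks, and at 3.88, 0.531, 0.538, 0 and 0.275 CPM at 24 weeks. It passed the filter in the type 2 fit and not in the type 1 fit. Only diabetic libraries were high enough for the type 2 filter, so a rise there was favoured in advance. The changes in that fit are given as description and not as a test. In the type 2 fit its log2 change was 1.87 (SE 1.155, adjusted p = 0.466) at 3 months and 3.24 (SE 1.42, adjusted p = 0.103) at 6 months. In the fit of all 36 libraries its effects did not pass the test of a difference between the models (adjusted p = 0.288 for the early and 0.802 for the late effects). Its upstream sequence is shown beside that of Slc38a2, the 2 carriers of the group best known as targets of the amino acid response, whose factor binds elements with the core TGATGNAA. Each line gives the 250 bases before the start (RefSeq on GRCm38.p6, minus strand; Slc7a11 at chr3:50443614-50443863 and Slc38a2 at chr15:96699729-96699978), with matches to the core in capitals.
Slc7a11: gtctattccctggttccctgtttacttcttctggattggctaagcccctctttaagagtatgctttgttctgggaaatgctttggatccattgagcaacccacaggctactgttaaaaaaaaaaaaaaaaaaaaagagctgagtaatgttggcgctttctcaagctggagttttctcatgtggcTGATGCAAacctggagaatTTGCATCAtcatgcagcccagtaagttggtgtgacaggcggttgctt
Slc38a2: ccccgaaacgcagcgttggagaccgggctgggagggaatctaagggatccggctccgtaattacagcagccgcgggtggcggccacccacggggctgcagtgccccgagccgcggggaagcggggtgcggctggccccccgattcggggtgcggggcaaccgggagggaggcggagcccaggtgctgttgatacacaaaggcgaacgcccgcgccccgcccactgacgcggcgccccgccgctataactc
Slc7a11 holds 2 matches, starting 66 and 47 bases before the start, one on each strand. In Slc38a2 these letters are not in this window. They occur in 3.45% of the 32851 promoters, and among the 43 members matched, Slc7a7 is the other that holds them.

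Carriers of cationic amino acids bring in arginine and lysine. Slc7a1, the widespread one, rose in both models. It was at 19.8 to 24.9 CPM in type 2 controls of 6 months and at 38.5 to 63.5 CPM in diabetic libraries, a change of 1.11 (SE 0.26, adjusted p = 0.00579). With the podocyte score as covariate it was 0.18 (adjusted p = 0.873) and with the proximal tubule score 0.44 (adjusted p = 0.646), by edgeR. At 3 weeks of the type 1 model it was at 15.3, 21.9, 18.3 and 24.4 CPM in controls and at 35.3, 37.3, 32.3, 29.6 and 27.2 CPM after STZ. The groups did not overlap, and the change was 0.66 (SE 0.18, adjusted p = 0.0311). The latter was lost without control 1 or 3 or STZ 1, 2 or 3 (0.58 to 0.68, adjusted p = 0.0606 to 0.0994 by edgeR). Slc7a2, the inducible form, rose at 6 months by 1.87 (SE 0.39, adjusted p = 0.00297), from 3.11 to 8.35 CPM in controls to 14.2 to 26.8 CPM in diabetic libraries, and had 0.88 with the podocyte score (adjusted p = 0.536 by edgeR). Slc7a4, for which no carrier activity is established, was called at 3 weeks, at 0, 0, 0 and 0.320 CPM in controls and 2.54, 1.89, 1.82, 0 and 1.60 CPM after STZ. The fitted change was 4.00 (SE 1.17, adjusted p = 0.0409 by edgeR). These controls had few genes detected, and STZ library 4, which had the fewest genes, was also at 0. Total counts were 14005245 to 19099900 in these controls and 10673102 to 24685574 after STZ. The part of detection in the change was not tested. The call was lost without control 1, 2 or 3 or STZ 1, 2 or 3 (3.65 to 3.97, adjusted p = 0.074 to 0.0984 by edgeR).

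Among carriers of glutamine and other neutral amino acids, Slc38a2 is the one that cells raise when amino acids run short. It rose at 6 months of the type 2 model, from 68.4, 64.9, 71.6 and 72.2 CPM to 132, 102 and 108 CPM, a change of 0.74 (SE 0.14, adjusted p = 0.0014). It rose at 24 weeks of the type 1 model from 72.3, 65.7, 50.2, 63.4 and 76.2 CPM to 95.8, 162, 114, 79.4 and 123 CPM, a change of 0.80 (SE 0.18, adjusted p = 0.0367). Neither pair of groups overlapped, and the other comparisons had 0.22 and 0.26 without a call. The 24-week call was lost without any 1 of the 5 controls or STZ 2, 3 or 5 (0.64 to 0.85, adjusted p = 0.0514 to 0.139 by edgeR). Slc38a1 was at 4.34, 4.49, 3.78 and 2.28 CPM in controls of 6 months and at 13.6, 6.42 and 36.8 CPM in diabetic libraries, and rose by 2.36 (SE 0.57, adjusted p = 0.00699). Without diabetic 3, the highest, its change was 1.44 (adjusted p = 0.0843 by edgeR). With the podocyte score as covariate it was -0.57.

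Slc38a3, which supplies glutamine to the tubule for ammonia production, rose at 6 months by 1.07 (SE 0.23, adjusted p = 0.00348), from 14.1 to 21.9 CPM in controls to 24.4 to 46.3 CPM. It had 1.17 (SE 0.30, adjusted p = 0.0652) at 24 weeks, 0.93 (adjusted p = 0.087) at 3 weeks and 0.39 at 3 months. Slc38a4, one of the members higher in TRAP than in kidney, fell at 6 months by 1.53 (SE 0.39, adjusted p = 0.00919), from 8.47 to 12.6 CPM in controls to 2.38 to 4.85 CPM, beside 19 of 21 podocyte markers that fell. With the podocyte score as covariate its change was -0.22 (adjusted p = 0.912 by edgeR). Slc36a4, the other such member, was called in no comparison (-0.03, -0.39, -0.19 and 0.07). Slc38a10 fell by 0.40 (adjusted p = 0.0469) at 3 months and by 0.39 (adjusted p = 0.0397) at 6 months. Leaving out 1 library ended the first call in 9 of 10 cases (-0.41 to -0.35), all but diabetic 5. It ended the second without control 2 or 3 or any 1 diabetic library (-0.43 to -0.34).

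The exchangers and uptake carriers of the Slc1 family, which handle glutamine, alanine or glutamate, had calls in the type 2 model and none by edgeR in the type 1 model, where a difference between the models was not called either. Slc1a5, the glutamine exchanger of proliferating cells, rose at 6 months by 1.34 (SE 0.33, adjusted p = 0.00866), from 5.83 to 15.8 CPM in controls to 16.1 to 31.3 CPM. With the podocyte score as covariate its change was 0.15 (adjusted p = 0.923 by edgeR). The glutamate carrier Slc1a2 rose by 1.18 (SE 0.32, adjusted p = 0.0146), and had 0.97 without diabetic 3 (adjusted p = 0.0729) and 0.11 with the podocyte score (adjusted p = 0.941), by edgeR. Slc1a1, which reclaims glutamate and cystine in the tubule, fell at 3 months by 0.50 (SE 0.14, adjusted p = 0.0458). It was at 55.3, 51.4, 64.3, 69.3 and 69.2 CPM in controls and at 48.5, 35.3, 43.3, 46.7 and 45.4 CPM in diabetic libraries, without overlap. The call was kept without control 2, and lost without any 1 of the other 9 libraries (-0.54 to -0.44, adjusted p = 0.0589 to 0.127 by edgeR).

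Sodium-coupled carriers of the brush border take up neutral amino acids, glycine and proline. Slc6a19 was called in no comparison (0.10, -0.19, 0.08 and 0.20). Slc6a18 fell at 3 months of the type 2 model by 0.56 (SE 0.14, adjusted p = 0.0267), from 96.7, 107, 115, 138 and 154 CPM to 84.2, 80.1, 79.7, 70.7 and 100 CPM, which overlap. The call was lost without control 4 or 5 or diabetic 1, 2 or 4 (-0.56 to -0.46, adjusted p = 0.0507 to 0.0904 by edgeR). Slc6a20b, an imino acid carrier close in sequence to its neighbour Slc6a20a, fell at 6 months by 1.34 (SE 0.28, adjusted p = 0.00341) and at 3 weeks of the type 1 model by 1.18 (SE 0.23, adjusted p = 0.00385). At 3 weeks it was at 63.1, 95.1, 65.9 and 68.5 CPM in controls and at 41.7, 23.0, 30.8, 21.8 and 48.5 CPM after STZ, without overlap. With the proximal tubule score as covariate the 3-week change was 0.01 and the 6-month change -0.13. Slc6a15, a carrier of branched-chain amino acids and proline, fell at 3 weeks by 2.04 (SE 0.46, adjusted p = 0.00867), from 11.8, 21.3, 8.78 and 9.23 CPM to 4.09, 3.36, 4.44, 0.455 and 3.51 CPM. These groups did not overlap either, and in the other comparisons the change was -0.61, 0.00 and -1.43. With the proximal tubule score as covariate the 3-week change was -0.99 (adjusted p = 0.542 by edgeR).

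Slc36a1, which exports amino acids from lysosomes and takes part in their sensing by the kinase mTOR, fell at 3 months of the type 2 model. It was at 102, 121, 104, 120 and 155 CPM in controls and at 62.1, 76.6, 81.8, 56.5 and 80.5 CPM in diabetic libraries, without overlap, a change of -0.76 (SE 0.16, adjusted p = 0.00916). That call was lost only with the proximal tubule score as covariate (-0.36, adjusted p = 0.346) among 19 settings, all but DESeq2 and limma by edgeR. At 6 months the change was -0.21. Of the Slc43 family, the basolateral carrier Slc43a2 rose at 6 months by 0.86 (SE 0.24, adjusted p = 0.0153) and the nucleobase carrier Slc43a3 by 1.22 (SE 0.36, adjusted p = 0.0224). Without diabetic 3 they had 0.53 (adjusted p = 0.134) and 1.02 (adjusted p = 0.0995), and with the podocyte score as covariate -0.07 and -0.32, by edgeR. Slc43a2 also lost its call without control 3 (0.75, adjusted p = 0.0516), and Slc43a3 without control 4 (1.12, 0.062) or diabetic 1 (1.03, 0.0869).

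The members left out of the type 2 test for low counts numbered 16, and 17 were left out of the type 1 test. Among the 16, Slc6a2, the noradrenaline carrier of neurons, was at 0 in all 36 TRAP libraries. The highest value among the others in any TRAP library was the 2.12 CPM of Slc38a11. A member that passed the filter through 1 group had more chance to differ, so the counts above concern the members tested and not all 61. Reads of genes on opposite strands can be shared, and no source used here says if counting took account of strand. An annotated gene lies opposite 22 of the 61 members, among them Slc6a6, Slc7a5, Slc3a1, Slc7a4, Slc43a2 and Slc6a20b.

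Genes that respond to, sense or use amino acids were read beside the carriers, from lists of which none holds a member. Of 24 genes of the amino acid response 3 rose at 3 months and 6 at 6 months of the type 2 model, and 2 and 1 in the type 1 arms, while 1 fell, at 6 months. Of all genes 2.03%, 11.2%, 3.78% and 0.448% rose in these comparisons. The median log2 change of the list was 0.51, 0.50, 0.50 and 0.30. Phgdh, the first enzyme of serine synthesis, rose at 3 months (1.36, adjusted p = 0.00341) and at 24 weeks (1.31, adjusted p = 0.0473). Chac1, which degrades glutathione, rose at 3 and 6 months (1.96 and 2.01), and the secreted factor Stc2 rose at 3 months (1.48). At 6 months the serine enzyme Psat1 (1.27), the mTOR inhibitor Ddit4 (2.67), the factor Atf5 (1.157) and the folate enzyme Aldh1l2 (1.85) rose. The transaminase Gpt2 rose at 3 weeks of the type 1 model (2.07). The pseudokinase Trib3 was also called there (adjusted p = 0.00184 by edgeR), but all 4 controls, which had few genes detected, were at 0, so no fold is given.

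Of 33 genes that pass amino acid levels to the kinase complex mTORC1, 1 fell at 3 months, where 1.96% of all genes fell. It was Mtor itself (-0.71, adjusted p = 0.0357 by edgeR). At 6 months 3 rose and 4 fell, a share near the 22.9% of all genes called there, so the count does not set the list apart. Sesn3 (0.80), the GTPase Rragd (1.07) and the inhibitor Deptor (0.68) rose, and Nprl2, a subunit of a complex that restrains the kinase, fell (-0.92). Rragd also rose at 3 weeks (0.76), the 1 call of the list there, where 3.78% of all genes rose. Single calls such as these do not set the list apart either. No gene of that list was called at 24 weeks by edgeR. Of 34 genes of amino acid use and glutathione 4 fell at 3 months and 9 fell and 3 rose at 6 months, and in the type 1 arms 1 of 33 fell in each. Of all genes 1.96% fell at 3 months, 11.7% at 6 months, 2.72% at 3 weeks and 0.448% at 24 weeks. Ggt1, which splits glutathione at the brush border, fell by 1.17, 1.83 and 1.159 at 3 months, 6 months and 3 weeks. Csad, an enzyme of taurine synthesis, fell by 0.94 at 3 months and 1.11 at 6 months. The transaminase Bcat1 fell at 3 months (-2.17) and so did Gclm of glutathione synthesis (-0.59), which also fell at 6 months (-0.88). The arginine enzyme Ass1 fell at 6 months (-1.69) and 24 weeks (-1.09). Among 14 tested partners and other carriers 1 rose at 3 months, 4 rose and 3 fell at 6 months, and 1 rose at 3 weeks, where 2.03%, 11.2% and 3.78% of all genes rose and 11.7% fell at 6 months. Tmem27, needed for brush border carriers such as Slc6a19, fell at 6 months (-1.15), Cd44 rose at 3 and 6 months (2.35 and 2.60), Mfsd12, which takes part in bringing cysteine into lysosomes, rose at 6 months (1.29) and the lysosomal peptide carrier Slc15a3 rose at 6 months (1.75) and 3 weeks (2.18). Several of these lists hold genes of the proximal tubule or of macrophages, whose markers moved in the same libraries as given above.

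Differences between the diabetic effects were tested as interaction terms in edgeR. Between 3 and 6 months of the type 2 model none of the 45 members was called (0% of all genes). An unadjusted p under 0.05 was met by 10 members and by 3252 of all 17180 genes. DESeq2 called 1 member and limma 0. Without diabetic libraries 4 and 5 of 3 months 6 members were called, and without diabetic 2 of 6 months 5. Leaving out 1 library gave 0 to 1911 called genes in all, so these counts are not read as a result about the members. Between 3 and 24 weeks of the type 1 model none of 44 was called (0% of all genes), and 0 by DESeq2 and limma. There an unadjusted p under 0.05 was met by 6 members and by 1092 of all 16279 genes. The earlier effect of the type 2 model minus that of the type 1 model was called for 2 of 47 members, against 0.94% of all genes (0.373% higher and 0.567% lower). Slc6a6 differed by 1.62 (SE 0.31, adjusted p = 0.0114), and by 1.32 to 1.76 with a call in each of 27 other settings. Slc7a4 differed by -4.80 (SE 1.2, adjusted p = 0.0376), which rests on the 3-week controls at or near 0 and was lost in 18 of 27 settings (-5.24 to -2.43 where lost). The later effects differed for 1 of 47 members, against 0.438% of all genes (0.178% higher and 0.259% lower): Slc7a12, by -2.62 (SE 0.51, adjusted p = 0.02). It lost the call without type 2 control 3 (-2.53, adjusted p = 0.0606) or diabetic 3 of 6 months (-2.25, adjusted p = 0.113). The ages compared there were 6 and 8 months, and no genotype is given for the type 1 mice, so the model cannot be told apart from age or, where it differs, genotype.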

How the data were processed

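Raw counts and FPKM of 32108 genes in 37 libraries were deposited by the authors. Tools named in the submitters' processing notes are featureCounts 1.15.2, STAR, cutadapt 1.16 and FastQC. The notes give the mm9 build, but all 61 members overlap their place on GRCm38 in GENCODE M21, and 42 have the same coordinates. The deposited FPKM equalled the count scaled by gene length and table total, within 1 percent, for 100% of values above 1. The members and all gene lists were chosen with earlier results of these data known.

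The fits used edgeR 4.0.16 under R 4.3.3 on the deposited counts (TMM, filterByExpr by group, robust quasi-likelihood F test, Benjamini-Hochberg adjustment over all genes at 0.05). The 17 type 2 libraries (17180 genes tested) and the 19 type 1 libraries (16279 genes) had a fit each, and all 36 TRAP libraries (18511 genes) had 1 fit for differences between models. CPM levels use TMM over all 37 libraries. Marker scores are mean log2 CPM with a prior count of 3. Kidney ratios use CPM plus 0.5, and intervals (exact Poisson, 95%) cover counting error only, since reads carry no molecular identifiers. Named genes are called members (at most 12 per comparison and direction), the 10 highest by FPKM, the 6 highest and 6 lowest kidney ratios, 12 fixed carriers, up to 4 called genes per pathway list and comparison, and Nphs1, Wt1, Lepr and Nos3. Kap, Ddx3y, Xist and the members not tested were named outside that rule, after their values were seen. Alternatives were DESeq2 1.42.0, limma 3.58.1 on log2(FPKM + 0.1), RLE size factors, no filter, 1 joint fit, marker scores as covariates, a replicate block and leaving out libraries. The steps were tested on simulated data. Replicate numbers in the titles did not pair libraries, and no TRAP library was a duplicate of another in its own group. Plots used matplotlib 3.10.9 under Python 3.11.15.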

Additional observations from a re-analysis of the deposited data

Results flagged for a closer look

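A gap test over 15 members asked if 1 library lay far from the rest of its group of 4 or 5. It was met in 4 of 105 cases, and chance alone gives about 1 in 20, or 5, so the number is no more than chance gives. Slc6a12 was at 2.58 CPM in control 2 of the 24-week arm, Slc7a5 at 16.5 CPM in type 2 diabetic library 4 of 3 months, Slc6a20b at 95.1 CPM in control 2 of the 3-week arm, and Slc7a4 at 0.320 CPM in control 4 of that arm, where the other 3 were at 0. In the same libraries the macrophage score was 3.94 for type 2 diabetic library 4, and the proximal tubule score was 8.96 for 3-week control 2, the highest of its group. The part of either in those values was not tested.

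A difference in the effect of diabetes between the models was called, by an interaction term in edgeR, for 3 members. Slc6a6 had a difference of 1.62 between the early effects, Slc7a4 had -4.80 between the early effects, and Slc7a12 had -2.62 between the late effects. The call of Slc7a4 was lost in 18 of 27 other settings and that of Slc7a12 in 3 of 24. The limits on model, age and genotype given above hold here too.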

How the results depend on the processing

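Of 37 calls in the 4 diabetic comparisons and 3 between models, Slc6a6, Slc6a12 and Slc7a13 at 3 months, Slc7a13 at 6 months and the early Slc6a6 difference kept their call in every setting tried. Leaving out any 1 library kept 4 of 8 calls at 3 months, 11 of 20 at 6 months, 3 of 6 at 3 weeks and 0 of 3 at 24 weeks. Counts of called members moved by over 1.5 times as follows. At 3 months they were 5 in the joint fit, 4 with limma, 5 with no filter, 5 with the proximal tubule score and 4 without diabetic libraries 4 and 5. At 6 months they were 1 with the podocyte score and 2 with the proximal tubule score. At 3 weeks they were 13 in the joint fit, 11 with DESeq2, 10 with limma, 11 with the podocyte score and 2 with the proximal tubule score. At 24 weeks they were 6 in the joint fit, 8 with DESeq2, 5 with the podocyte score and 1 with the proximal tubule score. The early difference had 1 with limma, 1 with no filter, 5 with either score and 1 without diabetic libraries 4 and 5, the late one 4 with the podocyte score, and the type 2 age difference 1 with DESeq2 and 6 without libraries 4 and 5. The cause was not tested.

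With 1 library left out, counts ranged from 4 to 8 at 3 months, 13 to 18 at 6 months, 3 to 9 at 3 weeks, 0 to 5 at 24 weeks, 0 to 5 for the type 2 age difference, 0 to 0 for the type 1 time difference, 1 to 3 and 0 to 2 for the early and late differences, and 15 to 21 for members 2-fold from kidney (18 with all libraries). Signs reversed at 6 months with the podocyte score for Slc38a1 (-0.57), Slc43a2 (-0.0744) and Slc43a3 (-0.32), and with the proximal tubule score for Slc7a9 (0.30) and, at 3 weeks, Slc6a20b (0.00615).

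Replicate numbers did not pair the libraries: correlations of deviations ran from -0.08 to 0.16, and not every library correlated best with its own number. With a replicate block the counts were 5 at 3 months, 15 at 6 months, 7 at 3 weeks, 0 at 24 weeks, 2 for the early and 0 for the late difference. At CPM near 1, as for Slc7a4, Slc6a12 and Slc7a11, depth limits what can be seen.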

Other observations

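Beside the osmolyte carriers above, 3 other genes of osmolyte handling were read after their values were seen. Slc5a3, the carrier of the osmolyte inositol, had log2 changes of -0.51 (adjusted p = 0.153), -0.17 (0.616), 0.05 (0.948) and 0.78 (0.261) at 3 months, 6 months, 3 weeks and 24 weeks, by edgeR. Akr1b3, which makes sorbitol, had -0.07 (adjusted p = 0.944), -0.71 (0.147), 0.20 (0.677) and 0.33 (0.646). Nfat5, the tonicity-responsive factor itself, had 0.16 (adjusted p = 0.6), 0.07 (0.757), 0.13 (0.722) and 0.06 (0.953). None of the 3 was called by edgeR. The part of tonicity in the change of Slc6a6 was not tested. Slc5a3 was at 329 ± 86.6 CPM in type 2 controls of 3 months and 232 ± 39.4 CPM in diabetic libraries (SD, n = 5 and 5), the opposite sign to Slc6a6 in the same libraries. At 24 weeks of the type 1 model it was at 350 ± 105 CPM in controls and 607 ± 226 CPM after STZ (SD, n = 5 and 5). That is the same sign as Slc6a6 there.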
